A study of Mus musculus with 5 samples.

Results

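The translation factor genes examined here are the protein-coding genes of GENCODE M21, the annotation of the mm10 mouse genome used here, whose symbols start with Eif or Eef. This rule uses names alone and found 69 of 21938 protein-coding genes. Translation factors are the soluble proteins that drive the ribosome along an mRNA. Initiation factors (eIFs) bring the initiator methionyl-tRNA, the small ribosomal subunit and the capped mRNA together. Elongation factors (eEFs) deliver aminoacyl-tRNAs and move the ribosome forward. A few genes with Eif or Eef names encode kinases, eIF4E-binding proteins or enzymes that modify the factors. The Myc transcription factor, an oncogene in the tumors studied, is well known for driving genes of ribosome biogenesis and translation.

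The study made a mouse model of medulloblastoma, a cerebellar tumor, called MG after its Myc and Gfi1 transgenes. Prominin1+ neural stem cells from the cerebella of young C57BL/6 pups were infected with retroviruses that carry Gfi1 and a stabilised mutant of Myc, and were transplanted into the cerebella of immunodeficient NSG mice. Chromatin of 2 such tumors, numbered 39 and 41, was immunoprecipitated with rabbit polyclonal antibodies to Gfi1, a zinc-finger repressor, and to Lsd1 (Kdm1a), a histone demethylase that Gfi1 recruits. This gave 2 libraries per factor, with a Gfi1 and an Lsd1 library from each tumor, and 4 peak lists. Both tumors carry both transgenes, so that there was no tumor without Gfi1 to compare with. Gfi1 was expressed from a retrovirus. The sample list gives as input a pool of MGB tumors, a name not spelled out there, which was not analysed here. Tumor tissue also holds host cells, whose part in a peak was not measured.

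The lists held 25078 to 36836 peaks. Each peak has a score from the authors' peak caller, whose definition is not given, and this was used only as a rank. The percentile of a peak is the percentage of the peaks of its own list that score lower, with ties at their mean rank. Where the lists are not named, the pair of Gfi1 values (tumor 39, tumor 41) comes before the pair of Lsd1 values (same order). A promoter peak is a peak within 1 kb of any annotated transcription start site (TSS) of the gene, and where several lay there the highest was taken. Of the neural genes Prom1, Nes, Sox2, Zic1, Atoh1 and Barhl1, 2 had a promoter peak in all 4 lists and the other 4 in some of them. Of the genes of other cells, Ptprc, Pecam1 and Cdh5 had none, and Cd68 had one in all 4, near the gene Eif4a1. A peak is not a measure of expression.

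The promoters below show what such a start looks like in sequence, from RefSeq (GRCm38.p6, the build of mm10), on the strand of the gene and up to the base before the RefSeq start. Eef1a1 encodes eEF1A1, the abundant factor that carries aminoacyl-tRNA to the ribosome, and had the highest mean percentile of the translation factor genes. Eif2d encodes a factor that can place a tRNA in the ribosome outside the usual route, and was among the 5 lowest. CG dinucleotides are in capitals, 18 in the 250 bases before Eef1a1 (chr9:78481725-78481974, minus strand) and 16 in those before Eif2d (chr1:131152957-131153206, plus strand, of which 26 bases lie in an annotated Eif2d exon).
Eef1a1: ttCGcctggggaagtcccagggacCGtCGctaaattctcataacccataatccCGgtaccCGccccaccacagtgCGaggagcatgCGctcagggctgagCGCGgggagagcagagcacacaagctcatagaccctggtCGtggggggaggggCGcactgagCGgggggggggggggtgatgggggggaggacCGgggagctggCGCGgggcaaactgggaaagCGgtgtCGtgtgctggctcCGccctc
Eif2d: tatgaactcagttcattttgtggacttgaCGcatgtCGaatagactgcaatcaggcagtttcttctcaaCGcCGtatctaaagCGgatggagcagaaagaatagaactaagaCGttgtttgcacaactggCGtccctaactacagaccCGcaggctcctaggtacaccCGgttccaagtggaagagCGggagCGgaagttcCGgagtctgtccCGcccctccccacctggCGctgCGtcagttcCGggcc
The count of CG was close in both stretches, and the ratio of observed to expected CpG within them was 0.652 before Eef1a1 and 0.866 before Eif2d. For every gene, CpG content was scored over the 500 bp on either side of each coding start, and the highest ratio was kept. By this score the order was the opposite, with 0.816 at Eef1a1 and 0.585 at Eif2d. The start that gave the kept ratio need not be the printed one.

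Both factors had peaks at nearly all translation factor promoters. A Gfi1 promoter peak was present at 65 of the 69 genes in tumor 39 and at 63 in tumor 41, against 65.0% and 54.3% of all protein-coding genes. An Lsd1 promoter peak was present at 65 and 67 of them, against 58.5% and 61.7%. In all 4 lists 62 genes had one, which is 89.9%, against 53.1% of all protein-coding genes. In the same 62 a Gfi1 promoter peak overlapped an Lsd1 promoter peak of the same tumor by at least 1 bp in both tumors, against 53.0%, when any promoter peak of the gene was counted. With the highest peaks alone, 60 of them did. Only Eif3j2 and Eif4e1b had no promoter peak in any list, against 33.6% of all genes. CpG-rich starts (observed to expected CpG of 0.6 or more and GC content of 50% or more) moved with these counts. They were found at 61 of the 69 genes, 59 of which had a peak in all 4 lists, against 85.3% of all CpG-rich genes. Of the 8 others, Eef1a2, Eef1akmt1, Eif2ak2, Eif2d, Eif2s3y, Eif3j2, Eif4e1b and Eif4ebp3, 3 did. The part of CpG content in these counts was not tested.

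The peaks also ranked high. For Gfi1 the median percentile of the genes with a peak was 91.1 (tumor 39) and 87.6 (tumor 41), which gives 89.4 ± 2.47 (SD, n = 2), while over all protein-coding genes with a peak it was 82.5 and 77.4. For Lsd1 it was 85.0 and 88.0, which gives 86.5 ± 2.11 (SD, n = 2), against 79.0 and 81.0. The median over the translation factor genes was thus above that over all genes in each list. Among the CpG-rich genes as a whole the Gfi1 medians were 86.2 and 80.3 and the Lsd1 medians 81.9 and 84.3. A peak in the upper 20% of the score in all 4 lists was found at 31 genes, or 44.9%, against 19.9% of all protein-coding genes. These 31 were all CpG-rich, which is 50.8% of the CpG-rich translation factor genes, against 36.0% of CpG-rich genes overall. The translation factor genes have a median of 4 annotated TSSs and all protein-coding genes a median of 3, and the part of this in the result was not tested.

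**Figure D1:**
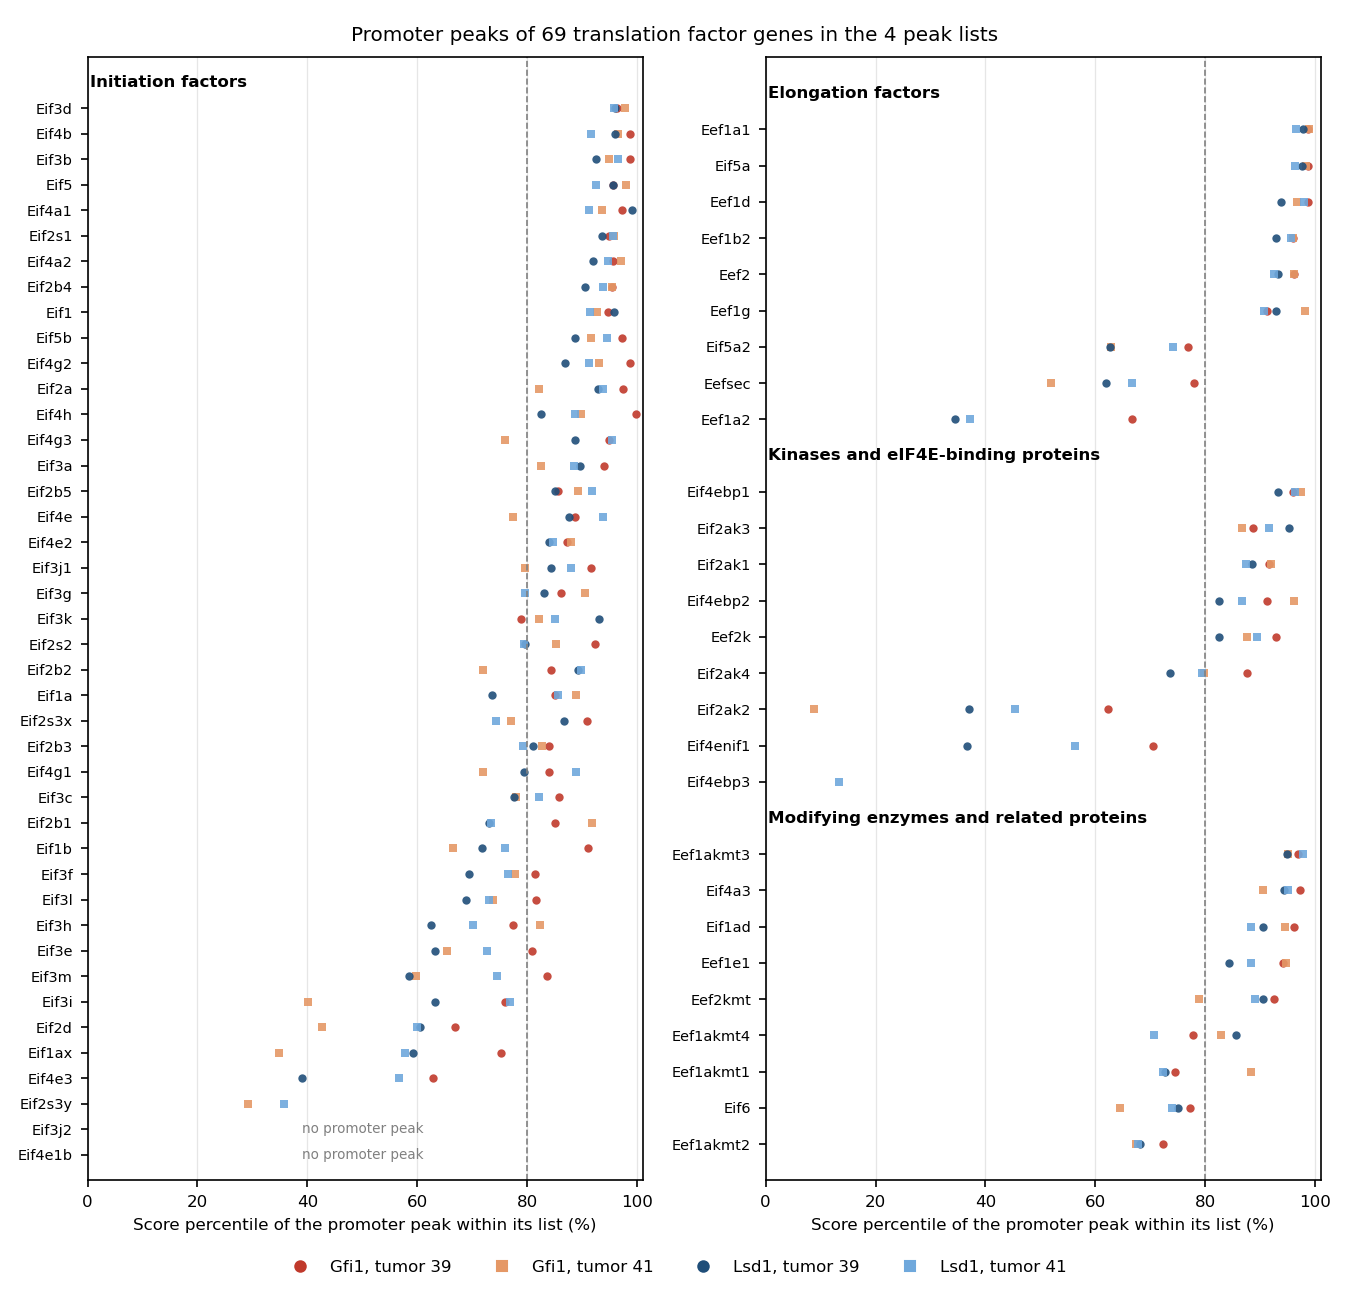
Percentile (x axis, %) of the promoter peak of each translation factor gene within its own list, with 1 point per list (red and orange for Gfi1, dark and light blue for Lsd1, circles for tumor 39 and squares for tumor 41) and genes ordered within their role by the number of lists and the mean percentile. The dashed line marks percentile 80, which 31 of the 69 genes exceeded in all 4 lists, and 2 genes had no promoter peak.

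Of the other parts of the translation machinery, the cytosolic ribosomal protein genes are the closest. A promoter peak was present in all 4 lists at 80 of 83 of them, and 60, or 72.3%, were in the upper 20% in all 4, which is a larger share than that of the translation factors. Their peaks were also wider, with Gfi1 medians of 3175 bp (tumor 39) and 3589 bp (tumor 41) and Lsd1 medians of 4265 bp and 3832 bp. At the translation factor genes the Gfi1 medians were 2412 bp and 2469 bp, against 2085.5 bp and 2185 bp over all genes with a peak. Their Lsd1 medians were 2787 bp and 2623 bp, against 2516 bp and 2380 bp. Mitochondrial ribosomal protein genes, of which all 78 had a peak in the 4 lists, were in the upper 20% in all 4 at 27 of 78. Over all protein-coding genes the shares were 53.1% and 19.9%, and over CpG-rich genes 85.3% and 36.0%. These shares were not compared by a test, since genes are not replicates and there are 2 tumors.

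The elongation factor genes fell into a high and a low group. Eef1a1 stood at percentiles 98.6 and 98.8 for Gfi1 in tumors 39 and 41 and at 97.8 and 96.4 for Lsd1. Its tissue-restricted copy Eef1a2, which encodes the form of neurons and muscle, stood at 66.7 for Gfi1 in tumor 39, had no Gfi1 promoter peak in tumor 41, and stood at 34.4 and 37.1 for Lsd1. The values of the copies did not overlap in any list, and the CpG ratio of 0.535 at Eef1a2 was under that of Eef1a1. The subunits of eEF1B, which reload eEF1A with GTP, ranked with Eef1a1. Eef1b2 stood at 95.9 and 96.0 for Gfi1 and 92.8 and 95.5 for Lsd1. For Eef1d the percentiles were 98.6 and 96.8, then 93.8 and 98.0, and for Eef1g they were 91.2 and 98.2, then 92.8 and 90.8. All 3 genes thus lay in the upper 10% of every list.

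Eef2, the translocase that moves the ribosome by a codon, stood at 96.2 and 96.1 for Gfi1 and 93.3 and 92.5 for Lsd1. Eif5a, named as an initiation factor but acting in elongation and termination and carrying the amino acid hypusine, stood at 98.6 and 98.4 for Gfi1 and 97.6 and 96.3 for Lsd1. Its less widely expressed copy Eif5a2 was at 76.9 and 62.8, then 62.6 and 74.2. Eif5a was above Eif5a2 in each list by more than the distance between the tumors. Eefsec, which delivers selenocysteine, was at 77.9 and 51.9, then 62.0 and 66.6. In all, 6 of 9 elongation factor genes were in the upper 20% in every list, and Eef1a2, Eefsec and Eif5a2 in none. The share in the upper 20% of every list was 19.9% over all protein-coding genes and 36.0% over CpG-rich genes. The tie of Eef1a1, Eef1d and Eif5a at 98.6 in Gfi1 of tumor 39 comes from the score, which stood at exactly 3100 in 805 peaks of that list, so that they cannot be ordered there.

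Initiation factor genes had a lower median rank than elongation factor genes. Of 42, 38 had a promoter peak in all 4 lists and 16, or 38.1%, were in the upper 20% in all 4. Over all protein-coding genes the shares were 53.1% and 19.9%, and over CpG-rich genes 85.3% and 36.0%. A CpG-rich start was found at 38 of the 42, and 38.1% is near the share of CpG-rich genes. Their median percentile was 88.8 and 82.5 for Gfi1 in tumors 39 and 41, against 95.9 and 96.5 for the elongation factors. For Lsd1 it was 84.4 and 86.8 against 92.8 and 92.5. The median of the initiation factors was thus lower in 4 of 4 lists. The mean difference of the medians was -10.5 ± 4.82 points for Gfi1 and -7.08 ± 1.95 for Lsd1 (SD, n = 2). This SD is over the tumors and does not measure the spread among the genes of a group. No test was run. With the sides drawn by symbol, all Eif against all Eef genes, the differences shrank to -7.29 ± 4.87 for Gfi1 and -3.16 ± 0.817 for Lsd1 (SD, n = 2). Among genes with a CpG-rich start they were -9.99 and -7.07, a comparison chosen after seeing the data. The lower quartiles did not follow the medians. That of the elongation factors was the lower one in Gfi1 of tumor 39 (77.9 against 83.7). For Lsd1 it was also lower, at 62.6 and 74.2 against 72.4 and 75.6. In Gfi1 of tumor 41 it was higher, at 87.7 against 74.8. The medians and quartiles are over genes with a peak. In that list they rest on 8 elongation factor genes, since Eef1a2 had no promoter peak there, and on 39 initiation factor genes. The groups also differed in annotation, with a median of 4.5 TSSs per gene for initiation and 6 for elongation factors, whose part was not tested.

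**Figure D2:**
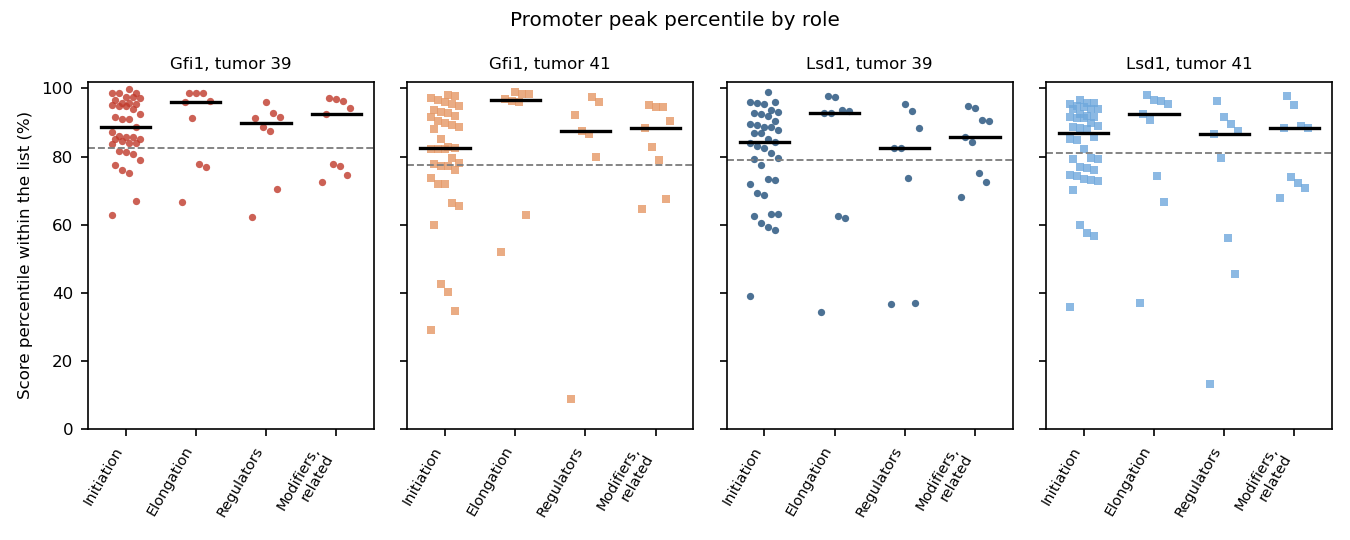
Percentile (y axis, %) of the promoter peak within its list, by role, with 1 panel per list, 1 point per gene with a peak, a black bar at the median of each role and a dashed line at the median of all protein-coding genes with a peak. The median of the initiation factors (82.5 to 88.8) lies under that of the elongation factors (92.5 to 96.5) in every panel.

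Median widths went the same way. The median peak width of elongation factor genes was 3880 bp (tumor 39) and 4283 bp (tumor 41) for Gfi1, and for Lsd1 it was 3650 bp and 4060 bp. That of initiation factor genes was 2412 bp and 2270 bp, then 2718 bp and 2654.5 bp. The widest mean peak was at Eef2, where a continuous peak (Gfi1 12037 bp and 13467 bp, Lsd1 13284 bp and 13151 bp) ran over the whole gene (mm10 chr10:81176631-81182498, plus strand). In at least 1 list each, it covered the starts of Dapk3 and 4930442H23Rik too. At Eif3g, a subunit of eIF3, the Gfi1 peak spanned 12288 bp and 8889 bp and the Lsd1 peak 6631 bp and 14233 bp. In at least 1 list it covered a start of Ppan. In Gfi1 of tumor 41 and Lsd1 of tumor 39 this domain stopped short of the 5'-most Eif3g start, over which a separate peak lay at percentiles 63.8 and 65.3. Eef1a1 came next, with 4987 bp and 7431 bp, then 7040 bp and 4256 bp. The peaks of Eef2 and Eif3g cannot be credited to a single gene. A peak covered the TSS of another protein-coding gene in at least 1 list at 19 of the 67 genes with a peak, to which the same limit applies. Among them were Eef1b2 (with Ndufs1), Eef1d (Tigd5), Eif3d (Foxred2), Eif2s1 (Atp6v1d), Eif2b1 (Gtf2h3) and Eif3k (Map4k1).

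**Figure D3:**
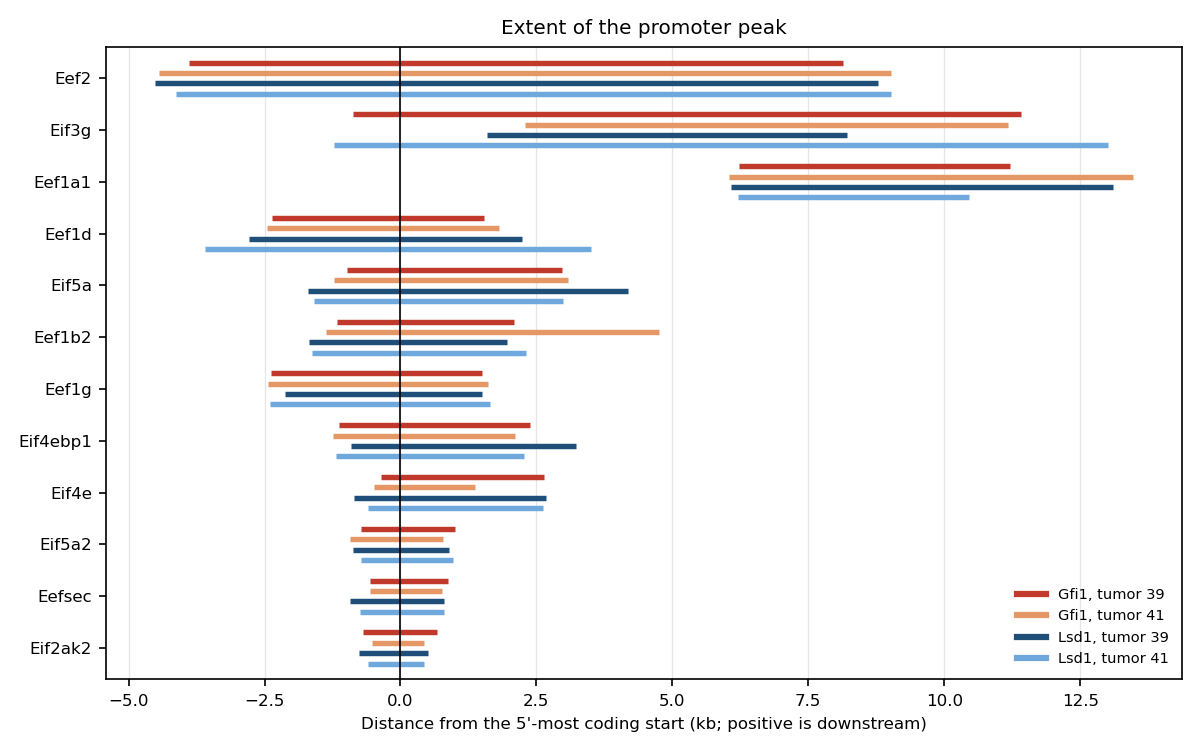
Extent of the promoter peak around the 5'-most coding TSS of 12 translation factor genes (x axis, kb, positive downstream), with 1 bar per list in the colours of the legend. The bars of Eef2 span 12037 to 13467 bp against 958 to 1370 bp at Eif2ak2, and those of Eef1a1 lie downstream of its 5'-most annotated start, over the start used by RefSeq.

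The eIF4 proteins recognise the cap and unwind the mRNA. Of the 11 genes of this group, 9 had a promoter peak in all 4 lists, and 6 (Eif4a1, Eif4a2, Eif4b, Eif4e2, Eif4g2 and Eif4h) were in the upper 20% in all 4. Over all protein-coding genes the shares were 53.1% and 19.9%, and over CpG-rich genes 85.3% and 36.0%. Eif4e, the cap-binding protein, stood at 88.8 and 77.3 for Gfi1 in tumors 39 and 41 and at 87.7 and 93.9 for Lsd1. Eif4g1, the scaffold of the cap-binding complex, was at 84.0 and 72.0, then 79.4 and 88.8. In both genes the Gfi1 peak of tumor 41 was the lowest and the Lsd1 peak of the same tumor the highest.

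Eif4a1, the RNA helicase, was at 97.3 and 93.6 for Gfi1 and 99.1 and 91.2 for Lsd1. Its highest Lsd1 peak in tumor 39 was another site than in the other lists, a peak of 7674 bp that covers the start of Cd68. The Lsd1 peak of that tumor at the site of the others stood at 94.9. The same happened at Eif3d, where the chosen Lsd1 peak of tumor 39 lay downstream at 96.04 and the peak at the start at 95.99. In the other 60 genes with a peak in all lists the 4 chosen peaks overlapped each other.

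Of the related cap-binding genes, Eif4e2, a competitor of eIF4E that represses translation, stood at 87.2 and 88.0, then 84.0 and 84.8. Eif4e3 was at 62.9 for Gfi1 in tumor 39, absent from Gfi1 in tumor 41, and for Lsd1 at 38.99 and 56.7. Eif4e1b, known from oocytes, had no promoter peak, although 2 and 2 Gfi1 peaks and 1 and 2 Lsd1 peaks lay inside the gene in tumors 39 and 41. The order of the family was thus Eif4e and Eif4e2, whose ranges overlap, then Eif4e3 and last Eif4e1b. Its CpG ratio of 0.169 was the lowest of these genes, against 0.982 at Eif4e. Outside promoters, Eif4g3, a homolog of Eif4g1, held the most peaks, with 5 and 5 (Gfi1) and 7 and 13 (Lsd1) in its gene body. This is a long gene (mm10 chr4:137993022-138208508), and the part of gene length in the count was not tested.

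**Figure D4:**
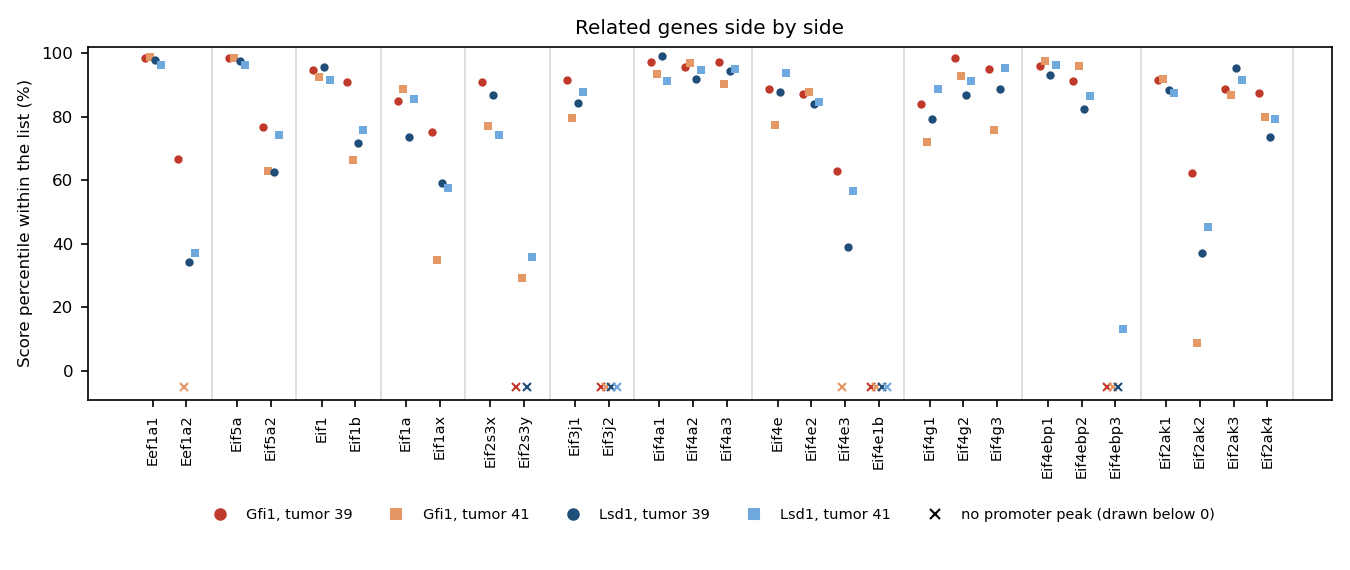
Percentile (y axis, %) of the promoter peak of related genes side by side, with 1 point per list in the colours of the legend and a cross under 0 where a list had no promoter peak. Eef1a2, Eif4e3, Eif4ebp3, Eif2s3y, Eif3j2 and Eif4e1b each lack a promoter peak in 1 or more lists, and the group of each also holds a gene with one in all 4.

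Among the subunits of eIF2, which carries the initiator tRNA, Eif2s1 stood at 94.9 and 95.9 for Gfi1 and 93.7 and 95.7 for Lsd1. Eif2s2 was at 92.4 and 85.2, then 79.7 and 79.3, and the X-linked Eif2s3x at 90.9 and 77.1, then 86.8 and 74.4. Eif2s1 alone was in the upper 20% in every list. The Y-linked copy Eif2s3y had no promoter peak in tumor 39 for either factor, and stood at 29.2 for Gfi1 and 35.8 for Lsd1 in tumor 41. The sex of the tumor cells or hosts was not tested. All 5 genes of eIF2B, the exchange factor that recharges eIF2, had a peak in all 4 lists, and Eif2b4 and Eif2b5 were in the upper 20% in all 4. Over all protein-coding genes the shares were 53.1% and 19.9%, and over CpG-rich genes 85.3% and 36.0%. All 5 eIF2B genes had a CpG-rich start.

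The genes of eIF3, the large scaffold that binds the small ribosomal subunit, ranked lower. Of 14, 13 had a peak in all 4 lists and 3, Eif3a, Eif3b and Eif3d, were in the upper 20% in all 4. That is 21.4%, near the 19.9% of all protein-coding genes and under the 36.0% of CpG-rich genes. A CpG-rich start was found at 13 of the 14. The share with a peak in all 4 lists was 53.1% over all protein-coding genes and 85.3% over CpG-rich genes. The median percentile was 83.6 and 79.7 for Gfi1 and 77.6 and 79.6 for Lsd1, within 3 points of the median of all genes in each list. Eif3d, which can itself bind the cap, stood out with 96.4 and 97.8 for Gfi1 and 96.0 and 95.8 for Lsd1. Eif3i was at 76.1 and 40.1, then 63.2 and 76.9, among the 5 lowest means. Eif3j2, a copy of Eif3j1, had no promoter peak, while Eif3j1 was at 91.6 and 79.7, then 84.4 and 88.0. How reads that match both copies were placed is not given in the sources used here.

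The factors that read the start codon differed between copies as well. Eif1ax, the X-linked copy of eIF1A, was at 75.2 and 34.8 for Gfi1 and 59.2 and 57.7 for Lsd1, and Eif1a at 85.0 and 88.8, then 73.5 and 85.6. Eif1, which guards start codon choice, was at 94.8 and 92.7, then 95.7 and 91.5, above its copy Eif1b at 91.1 and 66.5, then 71.8 and 75.9. The lower copy moved more between the tumors for Gfi1 in each pair. Eif2d, printed above, was at 66.8 and 42.6 for Gfi1 and 60.5 and 59.9 for Lsd1.

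The regulators of translation ran from high to very low ranks. Eif4ebp1, the mTOR target that blocks eIF4E, stood at 95.9 and 97.5 for Gfi1 and 93.3 and 96.4 for Lsd1, and Eif4ebp2 at 91.2 and 96.1, then 82.5 and 86.6. Eif4ebp3 had a single promoter peak, at 13.3 for Lsd1 in tumor 41. Eif4enif1, which takes eIF4E to the nucleus and to P-bodies, was at 70.5 for Gfi1 in tumor 39, absent in tumor 41, and at 36.6 and 56.2 for Lsd1. The members of the eIF4E-binding group therefore ran from the upper 10% to nearly none.

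The 4 kinases that phosphorylate eIF2 and so slow initiation under stress all had a promoter peak in the 4 lists. The share was 53.1% over all protein-coding genes and 85.3% over CpG-rich genes, and 3 of the 4 had a CpG-rich start. Eif2ak3 (PERK), the sensor of unfolded proteins, stood at 88.7 and 86.7 for Gfi1 and 95.3 and 91.7 for Lsd1. Eif2ak4 (GCN2), the sensor of amino acid shortage, was at 87.5 and 79.8, then 73.6 and 79.4. The lowest mean of the genes with 4 peaks, 38.4, was that of Eif2ak2 (PKR), the sensor of double-stranded RNA, at 62.3 and 8.86 for Gfi1 and 37.0 and 45.4 for Lsd1. Its CpG ratio was 0.457. Eef2k, the kinase that inhibits eEF2, was at 92.8 and 87.6, then 82.6 and 89.4. Eif2ak1, Eif2ak3, Eef2k, Eif4ebp1 and Eif4ebp2 were the 5 of 9 regulators in the upper 20% in all lists. That is 55.6%, against 19.9% of all protein-coding genes and 36.0% of CpG-rich genes.

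The modifying enzymes and related proteins had a peak in all 4 lists at 9 of 9 genes. The share was 53.1% over all protein-coding genes and 85.3% over CpG-rich genes. Eef1akmt3, a lysine methyltransferase of eEF1A, had the highest mean percentile of these, 96.1, with 96.8 and 95.1 for Gfi1 and 94.8 and 97.7 for Lsd1, and its peak also covered the start of Mettl1. The other genes of this kind in the upper 20% in all 4 lists were Eif4a3, a helicase of the exon junction complex, Eif1ad and Eef1e1. This makes 4 of 9, or 44.4%, against 19.9% of all protein-coding genes and 36.0% of CpG-rich genes. Of the 9 members known as TOP mRNAs, whose translation mTOR controls, 6 were in the upper 20% in all lists. The share was 19.9% over all protein-coding genes and 36.0% over CpG-rich genes, and all 9 had a CpG-rich start. The set overlaps the elongation factors described above, with Eef1b2 and Eef1d among its genes, and is not a separate result.

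Translation genes with other names were read in the same way. Of 32 such genes, 31 had a promoter peak in all 4 lists and 15 were in the upper 20% in all 4. Over all protein-coding genes the shares were 53.1% and 19.9%, and over CpG-rich genes 85.3% and 36.0%. A CpG-rich start was found at 29 of the 32. The 4 genes of the response to eIF2 phosphorylation, Atf4, Ddit3, Ppp1r15a and Ppp1r15b, were all among the 15, with mean percentiles from 94.0 to 98.8. So were Dhps and Dohh, the enzymes that make hypusine on eIF5A, at means of 93.0 and 93.1. Of 7 factors of mitochondrial translation all had a peak in all 4 lists and 1, Tufm, or 14.3%, was in the upper 20% in all 4. The one gene absent from some lists was Gspt2, a retrogene of the termination factor Gspt1, with a peak only in Gfi1 of tumor 39.

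The question that remained was whether Gfi1 and Lsd1 rank these promoters differently. In tumor 39 the Gfi1 percentile was higher than the Lsd1 percentile at 58 of 65 genes, against 72.1% of all protein-coding genes with both peaks, with a median difference of 4.61 points. In tumor 41 it was higher at 33 of 63, against 29.3%, with a median of 0.36. Over all protein-coding genes with both peaks, the medians were 5.40 and -4.87, so that over all genes the sign of the median changed between the tumors. The difference had the same sign in both tumors at 32 of the 62 genes with 4 peaks, 29 of them with Gfi1 higher, against 20.1% of all protein-coding genes with 4 peaks. No test was run on these counts. The largest mean differences of this kind were at Eif2b1 (11.99 and 18.5 points), Eif3h (14.9 and 12.1) and Eif2s2 (12.8 and 5.85). Lsd1 ranked higher in both tumors at 3 genes, against 19.8% of all genes with 4 peaks. These were Eif2b2 (-4.81 and -17.8), Eif3k (-14.2 and -2.95) and Eif2ak3 (-6.57 and -4.94). Eif2b1 and Eif2b2 encode subunits of the same complex and differ in sign. Across the genes the percentiles of a pair of lists went together, with Spearman's rho from 0.737 to 0.877 over 62 to 65 translation factor genes and from 0.782 to 0.898 over all genes. The points share a library on each axis, and 4 of the 6 pairs of lists share a tumor or an antibody. The highest rho between a Gfi1 and an Lsd1 list, 0.868, was that of Gfi1 in tumor 39 with Lsd1 in tumor 41, which share neither.

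**Figure D5:**
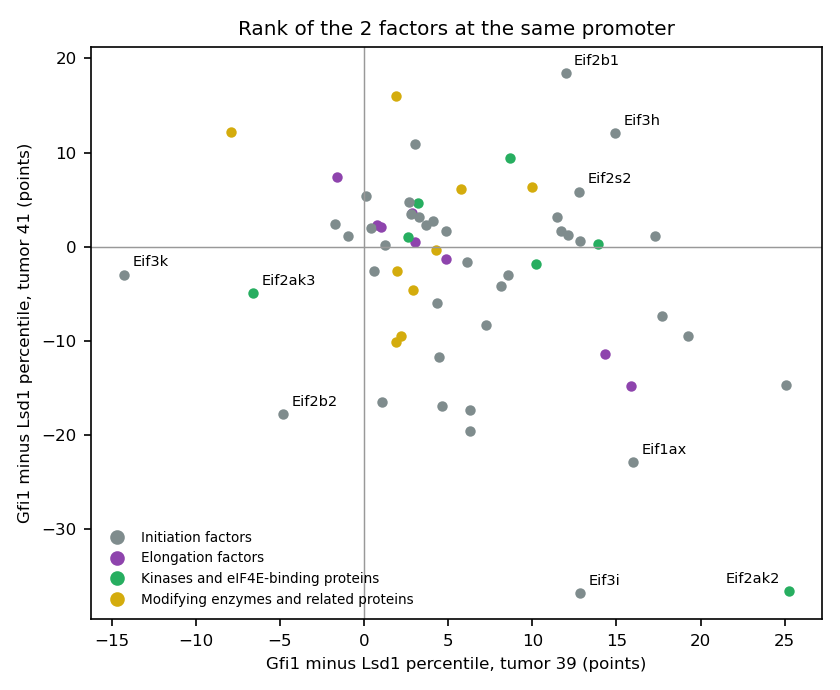
Gfi1 minus Lsd1 percentile (points) at each translation factor gene with 4 promoter peaks, in tumor 39 (x axis) and tumor 41 (y axis), coloured by role. Of 62 genes, 29 lie in the upper right part and 3 (Eif2b2, Eif3k and Eif2ak3) in the lower left, and Eif2ak2 and Eif3i have the lowest values in tumor 41.

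Promoter windows of 300 bases, from 250 before to 50 after the RefSeq start, were found for 53 of the 69 genes, 68 windows in all, and both strands were searched. The E-box CACGTG, the site of Myc and of other bHLH proteins, was in 15 windows, or 22.1%, of 13 genes, against 8.03% of the windows of all protein-coding genes and 10.4% of those at CpG-rich starts. The Ets letters CCGGAAG were in 29.4%, against 11.9% and 17.5%. The letters AAATCA, the core of the sequence that Gfi1 is known to bind, were in 3 windows, or 4.41%, against 12.2% and 7.17%. GGGCGG, the GC box, was in 70.6% against 47.8% and 67.6%, CCAAT in 17 of the 68 against 37.8% and 36.6%, and AAGATGG, letters of the YY1 site, in 11.8% against 6.30% and 6.74%. The median of the mean percentile was 86.9 over 13 genes with an E-box and 88.8 over 37 with a window and none.

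As examples, the bases before Eif3d (chr15:77970825-77970944, GRCm38.p6, minus strand) hold the Ets letters on the other strand, CTTCCGG, and those before Eif3k (chr7:28981889-28982008, minus strand) hold the E-box, each in capitals. They begin at -70 and -44 from the RefSeq start.
Eif3d: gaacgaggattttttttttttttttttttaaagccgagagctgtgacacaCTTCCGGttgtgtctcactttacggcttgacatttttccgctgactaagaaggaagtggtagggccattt
Eif3k: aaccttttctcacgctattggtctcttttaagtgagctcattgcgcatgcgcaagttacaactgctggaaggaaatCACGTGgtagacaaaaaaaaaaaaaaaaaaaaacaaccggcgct
Eif3d had some of the highest percentiles of both factors, and Eif3k, with 78.9 and 82.2 for Gfi1 and 93.1 and 85.1 for Lsd1, was 1 of the 3 genes where Lsd1 ranked higher in both tumors. Such a match is a description of the letters and not a bound site.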

How the data were processed

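Gfi1 and Lsd1 ChIP-seq peak lists of MG tumors 39 and 41 were analysed, and same-numbered libraries come from the same tumor. The authors aligned reads to mm10 with BWA 0.6.2, merged files with Picard and removed duplicates, and MACS with its default settings then found peaks in each library separately, relative to input. For each peak the deposited lists hold its coordinates and a score, with no read counts, so that the precision of a single peak is unknown. The score was used only as a rank within its list, with ties at their mean rank, since its definition is not given in the sources used here.

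TSSs were those of GENCODE M21 on GRCm38, where the study used another release, and chromosomes 1 to 19, X and Y were read. A promoter peak came within 1000 bp of any TSS of the gene. Overlap of the factors needed 1 bp. CpG content was counted within 500 bp of each coding start, and the start with the highest ratio stood for the gene. Genes with more coding starts thus had more chances of a high ratio, and the part of this was not tested. Counts over genes are descriptions beside all protein-coding genes, errors are the SD over 2 tumors, and no test was run.

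The named genes were, by rule, the elongation factors, genes absent from a list, the 5 highest and 5 lowest means, the 3 largest differences between factors of either sign that held in both tumors, the 3 widest peaks and 11 genes named for their function. Genes named beyond that rule were picked after their values were seen. The members, the role lists and the other lists were chosen with earlier results of these data known, so that none is independent support. Alternatives varied the window, the TSSs, the peak chosen, the score threshold, ties, roles and libraries. Steps were tested on simulated data and were run in Python 3.11.15 (matplotlib 3.10.9, pysam 0.24.0, scipy 1.17.1, numpy 2.4.6).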

Additional observations from a re-analysis of the deposited data

Results flagged for a closer look

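The 2 factors moved in opposite directions between the tumors. The median over the translation factor genes of the percentile in tumor 41 minus that in tumor 39 was -3.65 points for Gfi1, where 21 of 62 genes were higher in tumor 41, and 2.73 points for Lsd1, where 40 of 65 were higher. Over all protein-coding genes with both peaks the medians were -7.47 and 2.59 points. Each value rests on 1 library per factor and tumor, and the difference between the factors was not tested. The Gfi1 list of tumor 41 was the shortest of the 4, with 25078 peaks, and the part of list length in these values was not tested.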

How the results depend on the processing

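Of 106 values recomputed under an alternative that kept all libraries, 99 moved by less than the SD over the tumors or, for counts, by less than 1.5 times. Only the differences of medians and of the factors could change sign, and 0 did. Counts that held nearly all 69 genes could not rise by 1.5 times, so that for them this limit says little about stability. The count of 31 genes in the upper 20% in all lists was 18 at the upper 10% and 56 at the upper 40%. The median Gfi1 peak width of 2440.5 bp was 2362.5 bp when the peak had to cover the TSS or the closest peak was taken, and 2517 bp for autosomal genes. The difference of initiation and elongation factors for Lsd1 was -3.16 with all Eif set against all Eef genes. The median Gfi1 percentile of 89.4 was 86.2 over genes whose peak covers no other coding gene's TSS, an alternative chosen after seeing the data. The cause of these shifts was not tested. The count with a peak in all 4 lists ran from 44, over the fewer genes that share no peak with another TSS, to 65. With 2 tumors, leaving out a replicate moves a mean by less than its SD by construction, so that the medians and differences without a replicate say nothing about stability. Without a replicate there were differences of initiation and elongation factors from -13.9 to -7.11 for Gfi1 and from -8.46 to -5.70 for Lsd1, and a median Gfi1 minus Lsd1 percentile from 0.36 to 4.61. Gfi1 and Lsd1 were compared within a tumor throughout, and with no test there was no model to add a replicate block to. The lists hold no read counts, and weak sites below the authors' limit are not analysed here.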
